A study of Mus musculus with 40 samples.

Results

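The 50 genes described here encode proteins that carry cells through mitosis, and their RNA was followed in 40 EMT-6 tumors. They were taken by symbol from a list, and all 50 were found among the 39012 genes of the deposited tables and passed the filter on low counts in each fit. EMT-6 is a mouse mammary carcinoma line that grows in Balb/C mice. Viable cells were placed in the right mammary pad of females aged 8 to 12 weeks, and 20 days later, with tumors near 400 mm3 on average, treatment was started. The agents went into a vein on days 0, 1 and 2, and each tumor was taken on day 6.

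Each of the 4 groups held 10 tumors with 1 RNA library each. The bifunctional group received 492 µg of a protein that joins an antibody against PD-L1 to a trap for TGF-β (libraries C0479 to C0488). The trap control group received 492 µg of a protein that fuses the TGF-β trap to a mutated anti-PD-L1 (C0459 to C0468). The anti-PD-L1 group received 400 µg of the antibody alone (C0469 to C0478), and the isotype control group 400 µg of an inactive isotype antibody (C0449 to C0458). The 16 libraries C0449 to C0464, called set 1, were kept apart from the 24 libraries C0465 to C0488, called set 2. Set 1 held 6 trap control and 10 isotype control libraries, and set 2 held 10 bifunctional, 4 trap control and 10 anti-PD-L1 libraries. Sample numbers follow treatment, so effects of processing order and of treatment cannot be told apart.

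Mitosis is started by the kinase Cdk1 with its cyclin partners, and it ends when the anaphase-promoting complex destroys those cyclins and the inhibitor of the protease that cuts sister chromatids apart. In between, condensins compact the chromosomes, kinetochores fasten them to spindle microtubules, and a checkpoint holds the cell until every chromosome is attached. Most of these genes are transcribed late in the cell cycle under the MuvB, B-Myb and FoxM1 regulators, often through promoter elements named CHR and CCAAT. Their RNA is therefore widely used as a gauge of dividing cells in a tumor.

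Total expected counts per library were 13495835 to 25108601 in set 1 and 21987948 to 27658263 in set 2. The structural RNAs Rn7s1, Rn7s2, mt-Rnr1 and mt-Rnr2 took 29.7% to 62.3% of counts in set 1 and 11.7% to 18% in set 2, so levels are compared within a set only. No pair of libraries in a group agreed within sampling noise (chi-square per degree of freedom of 9.6 or more). The summed level of 9 skeletal muscle markers was 456.3 TPM in C0479 and 1180 TPM in C0484, against a bifunctional median of 2.44 TPM; keratinocyte markers reached 407 TPM in C0479 and adipocyte markers 900 TPM in C0484. Trap control library C0463 of set 1 held 745 TPM of muscle markers. Epithelial markers were listed because the line is a carcinoma. They summed to at least 62.7 TPM in each library of set 2 and at least 7.44 TPM in set 1. No epithelial marker was at 0 in set 2, and Cldn4 was at 0 in at least 1 library of each set 1 group. Mesenchymal markers were higher, with set 2 medians of 898 TPM in bifunctional, 880 TPM in trap control and 982 TPM in anti-PD-L1 tumors. The epithelial medians there were 111, 126 and 110 TPM. The share of carcinoma cells was not tested.

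Bifunctional tumors had less mitotic RNA than anti-PD-L1 tumors when measured as counts. Of the 50 genes 39 fell and 0 rose by edgeR's quasi-likelihood test with Benjamini-Hochberg adjustment over all genes tested (adjusted p under 0.05), while 13.1% of all 15704 genes fell and 12.4% rose. The log2 fold change was negative for all 50 genes on the count scale. Its median was -0.35 (a decrease of 21.7%), against 0.01 over all genes tested. On the TPM scale the sign turned for 12 of the 50, and the median was -0.05, against 0.15 over all genes. Levels below are in CPM, counts relative to the library size as scaled by edgeR's TMM method. Anti-PD-L1 is the matched comparison for the trap arm of the molecule, because both groups carried PD-L1 blockade. In a bulk tumor, fewer dividing cells and less mitotic RNA per cell cannot be told apart.

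**Figure D1:**
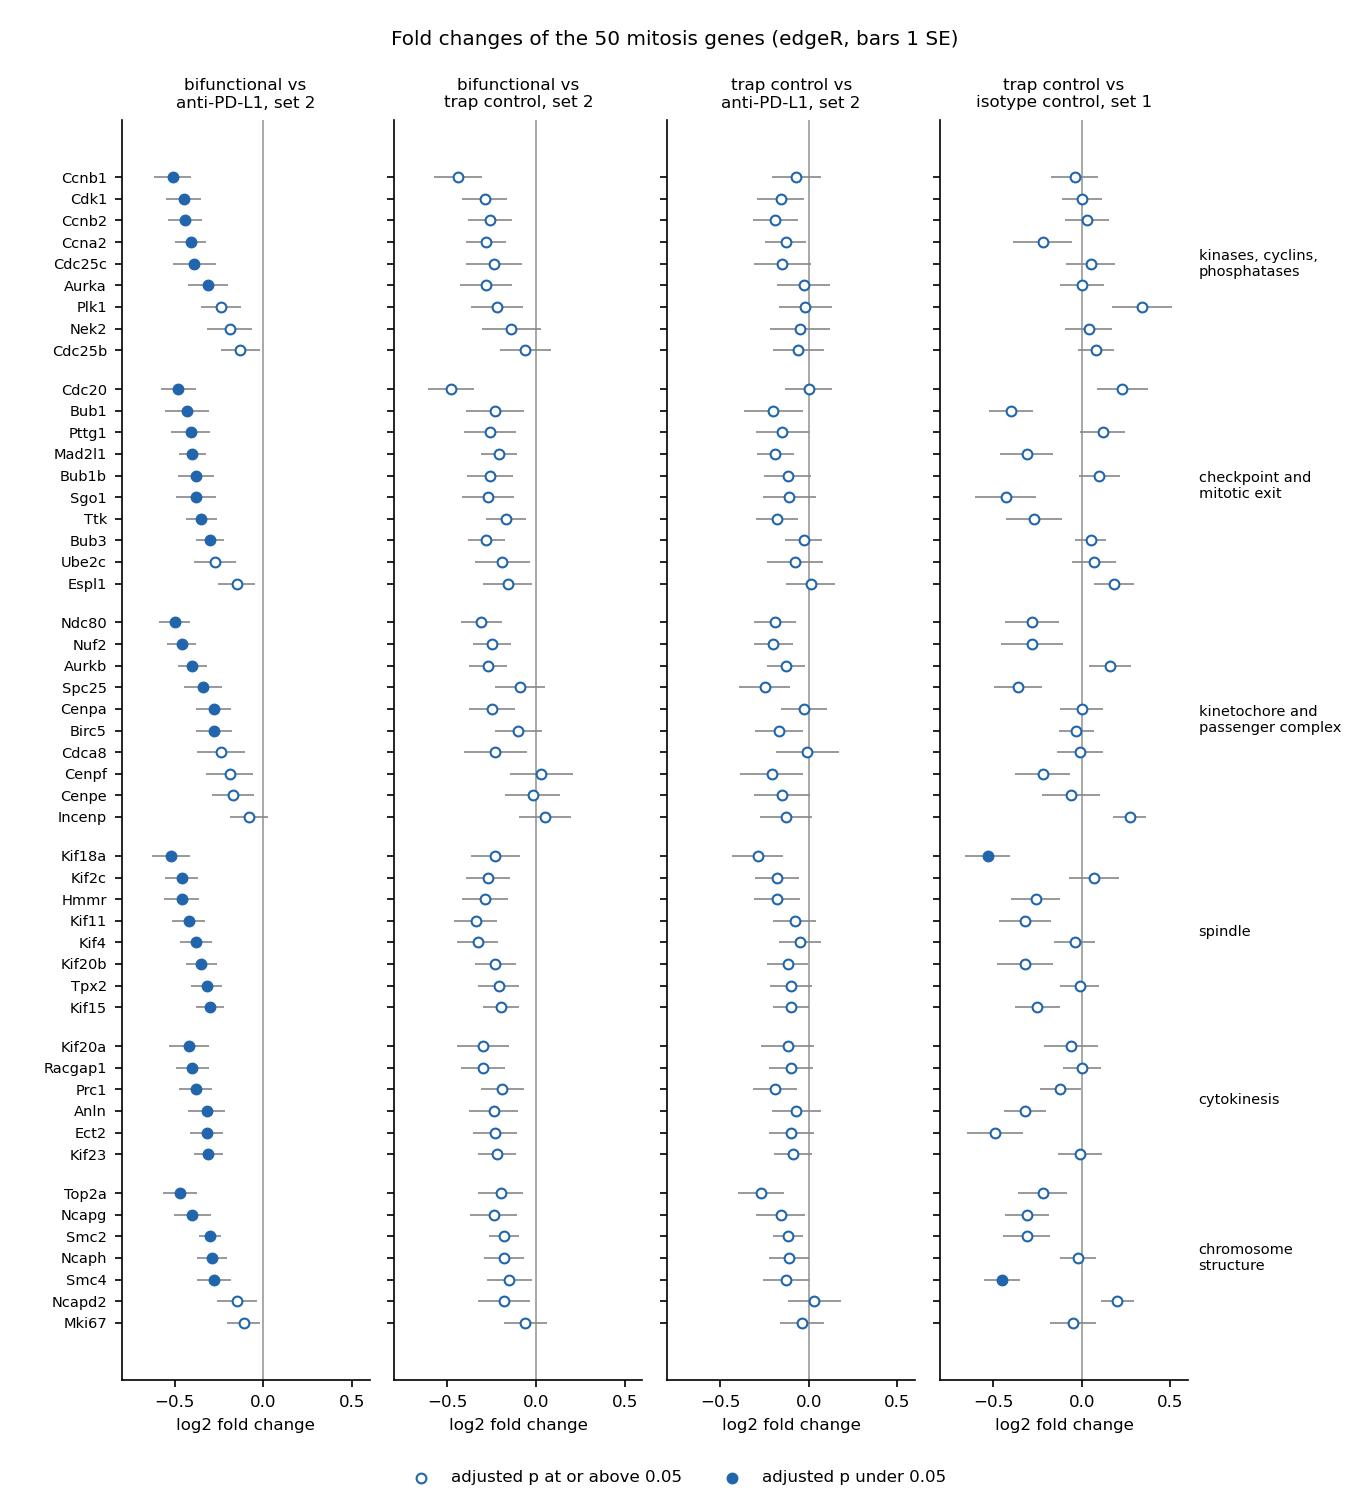
Log2 fold change (horizontal axis) of each of the 50 genes, by role, in 4 comparisons; bars are 1 SE and filled points have an adjusted p under 0.05. In bifunctional against anti-PD-L1 tumors all 50 points lie left of 0 and 39 are filled, although on the TPM scale 12 of them change sign; in the trap control against the isotype control only Kif18a and Smc4 are filled.

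Among the kinases, cyclins and phosphatases that drive entry into mitosis, 6 of 9 fell. Ccnb1 encodes cyclin B1, the partner that activates Cdk1; its lowest, median and highest values were 57.4, 88 and 124 CPM in bifunctional tumors and 106, 120 and 153 CPM in anti-PD-L1 tumors. Only part of the ranges overlapped, and 9 of 10 bifunctional libraries lay below the anti-PD-L1 median (log2 fold change -0.51, SE 0.105, edgeR adjusted p 0.00525). Cdk1, the kinase itself, had 59.9, 83.3 and 121 CPM in bifunctional tumors against 103, 111 and 147 CPM in anti-PD-L1 tumors (-0.45, SE 0.0984, edgeR adjusted p 0.00651). Here too 9 of 10 bifunctional libraries were under the anti-PD-L1 median. Ccna2, which encodes cyclin A2 of S phase and early mitosis, had 77.7, 117 and 138 CPM in bifunctional tumors against 129.6, 150.4 and 176 CPM in anti-PD-L1 tumors (-0.41, SE 0.0871, edgeR adjusted p 0.00557), and all 10 bifunctional libraries were below the anti-PD-L1 median. Ccnb2, a second B-type cyclin, and Cdc25c, a phosphatase that activates Cdk1, fell by 0.44 and 0.39 on the log2 scale.

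Aurka encodes the kinase that matures the spindle poles. It had 26.0, 38.9 and 51.2 CPM in bifunctional tumors against 29.1, 49.3 and 55.9 CPM in anti-PD-L1 tumors, ranges that overlapped over most of their length (-0.31, SE 0.112, edgeR adjusted p 0.0429). Plk1, a kinase that acts from mitotic entry to cell division, had 31, 47 and 49.9 CPM in bifunctional tumors against 34.0, 51.8 and 64.7 CPM in anti-PD-L1 tumors. All 10 bifunctional libraries were below the anti-PD-L1 median, yet Plk1 did not pass the test (-0.24, 95% interval -0.46 to -0.02, edgeR adjusted p 0.117). Nek2, a centrosome kinase, and Cdc25b, another activator of Cdk1, had log2 fold changes of -0.19 and -0.13 and did not pass.

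In the group of spindle checkpoint and mitotic exit genes 8 of 10 fell. Cdc20, which activates the anaphase-promoting complex and is the target of the checkpoint, had 65.7, 105 and 136 CPM in bifunctional tumors against 131, 141 and 165 CPM in anti-PD-L1 tumors (-0.48, SE 0.0997, edgeR adjusted p 0.00529). All 10 bifunctional libraries lay below the anti-PD-L1 median. Mad2l1 encodes Mad2, the checkpoint protein that binds Cdc20; it had 24.1, 31.3 and 35.8 CPM in bifunctional tumors against 35.3, 40.4 and 49.6 CPM in anti-PD-L1 tumors (-0.40, SE 0.0782, edgeR adjusted p 0.00437). The ranges met only at their ends. Bub1, a checkpoint kinase, had 41.3, 61.1 and 93.5 CPM in bifunctional tumors against 61.7, 81.2 and 101 CPM in anti-PD-L1 tumors, with wide overlap, and fell by 0.43. The checkpoint kinase Ttk fell by 0.35, and Bub1b and Bub3, their partners at the kinetochore, by 0.38 and 0.30. Pttg1, the inhibitor of separase, had 11.1, 15.6 and 23.6 CPM in bifunctional tumors against 17.6, 19.7 and 27.9 CPM in anti-PD-L1 tumors and fell by 0.41. Sgo1, which shields cohesin at centromeres, fell by 0.38. The exceptions were Ube2c, the ubiquitin-conjugating enzyme of the anaphase-promoting complex (-0.27, edgeR adjusted p 0.0931), and Espl1, the separase gene (-0.15, edgeR adjusted p 0.297).

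Kinetochore and chromosomal passenger genes were split, with 6 of 10 lower. Ndc80, a subunit of the complex that grips microtubules, had the smallest p-value of the 50 genes. Its values were 21.9, 34.2 and 42.7 CPM in bifunctional tumors against 42.2, 45.8 and 56.2 CPM in anti-PD-L1 tumors (-0.50, SE 0.0884, edgeR adjusted p 0.00354). Its partner Nuf2 had 26.3, 33.8 and 42.9 CPM in bifunctional tumors against 38.8, 45.0 and 55.0 CPM in anti-PD-L1 tumors (-0.46, SE 0.0826, edgeR adjusted p 0.0037). For both genes all 10 bifunctional libraries were below the anti-PD-L1 median. Spc25, of the same complex, fell by 0.34, and Cenpa, the centromeric histone, by 0.28.

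The passenger complex joins the kinase Aurora B to 3 partners that place it on chromosomes, and the log2 fold changes of the 4 genes lay between -0.40 and -0.08. Aurkb, the kinase gene, had 21, 29.8 and 35.8 CPM in bifunctional tumors against 32.9, 39.4 and 46.5 CPM in anti-PD-L1 tumors (-0.40, SE 0.0815, edgeR adjusted p 0.00499). Birc5, which encodes survivin, fell by 0.28, and Cdca8, which encodes borealin, had a log2 fold change of -0.24 that did not pass. Incenp, the scaffold, had 33.0, 49.6 and 55.2 CPM in bifunctional tumors against 32.4, 53.2 and 66.8 CPM in anti-PD-L1 tumors, and its fold change was the smallest of the 50 (-0.08, 95% interval -0.30 to 0.13, edgeR adjusted p 0.592). The bifunctional range lay wholly inside the anti-PD-L1 range. Differences between members of the complex were not tested. The large kinetochore proteins Cenpe, a motor, and Cenpf had log2 fold changes of -0.17 and -0.19 and did not pass.

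All 8 spindle genes and all 6 cytokinesis genes fell. Kif18a, a motor that damps chromosome movement at the spindle equator, had the most negative fold change: 14.6, 22 and 29.4 CPM in bifunctional tumors against 25.9, 29.8 and 42.8 CPM in anti-PD-L1 tumors (-0.52, SE 0.107, edgeR adjusted p 0.00525). All 10 bifunctional libraries were below the anti-PD-L1 median. Kif2c, a motor that takes microtubules apart, had 28.3, 47.3 and 61.4 CPM in bifunctional tumors against 54.8, 62.2 and 72.2 CPM in anti-PD-L1 tumors (-0.46, SE 0.094, edgeR adjusted p 0.00529). Hmmr, a spindle pole protein, had 36.2, 54.7 and 70.1 CPM in bifunctional tumors against 65.3, 73.6 and 88.2 CPM in anti-PD-L1 tumors (-0.46, SE 0.0988, edgeR adjusted p 0.00582). The ranges overlapped for both genes, and the highest bifunctional value exceeded several anti-PD-L1 values. Kif11, the motor that pushes the poles apart, had 77.9, 117 and 153 CPM in bifunctional tumors against 139, 156 and 175 CPM in anti-PD-L1 tumors and fell by 0.42. The chromosome-arm motor Kif4 and Tpx2, which activates Aurora A, fell by 0.38 and 0.32.

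For cytokinesis the folds lay close together. Kif20a and Kif23, motors of the central spindle, fell by 0.42 and 0.31; Prc1, which bundles its microtubules, fell by 0.38. Racgap1 and Ect2, which switch on the contractile ring, fell by 0.40 and 0.32, and the ring protein Anln by 0.32. Ect2 had 42.4, 65.8 and 75.5 CPM in bifunctional tumors against 62.8, 75.3 and 100.3 CPM in anti-PD-L1 tumors, and 9 of 10 bifunctional libraries were below the anti-PD-L1 median.

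Of the chromosome structure genes 5 of 7 fell. Top2a, the topoisomerase that untangles sister chromatids, had 284, 409 and 566 CPM in bifunctional tumors against 507, 595 and 644 CPM in anti-PD-L1 tumors (-0.47, SE 0.0953, edgeR adjusted p 0.00525). Smc2, a core subunit of both condensins, had 63.4, 78.0 and 88.4 CPM in bifunctional tumors against 83.8, 96.9 and 104 CPM in anti-PD-L1 tumors (-0.30, SE 0.0636, edgeR adjusted p 0.00553). All 10 bifunctional libraries lay below the anti-PD-L1 median for both genes. The condensin subunits Ncapg, Ncaph and Smc4 fell by 0.40, 0.29 and 0.28, and Ncapd2 had a log2 fold change of -0.15 that did not pass. Mki67, whose product Ki-67 coats mitotic chromosomes and is the common stain for dividing cells, had 212, 284 and 343 CPM in bifunctional tumors against 202, 299 and 395 CPM in anti-PD-L1 tumors. The anti-PD-L1 range enclosed the bifunctional one, and Mki67 did not pass the test (-0.11, 95% interval -0.29 to 0.08, edgeR adjusted p 0.402).

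**Figure D2:**
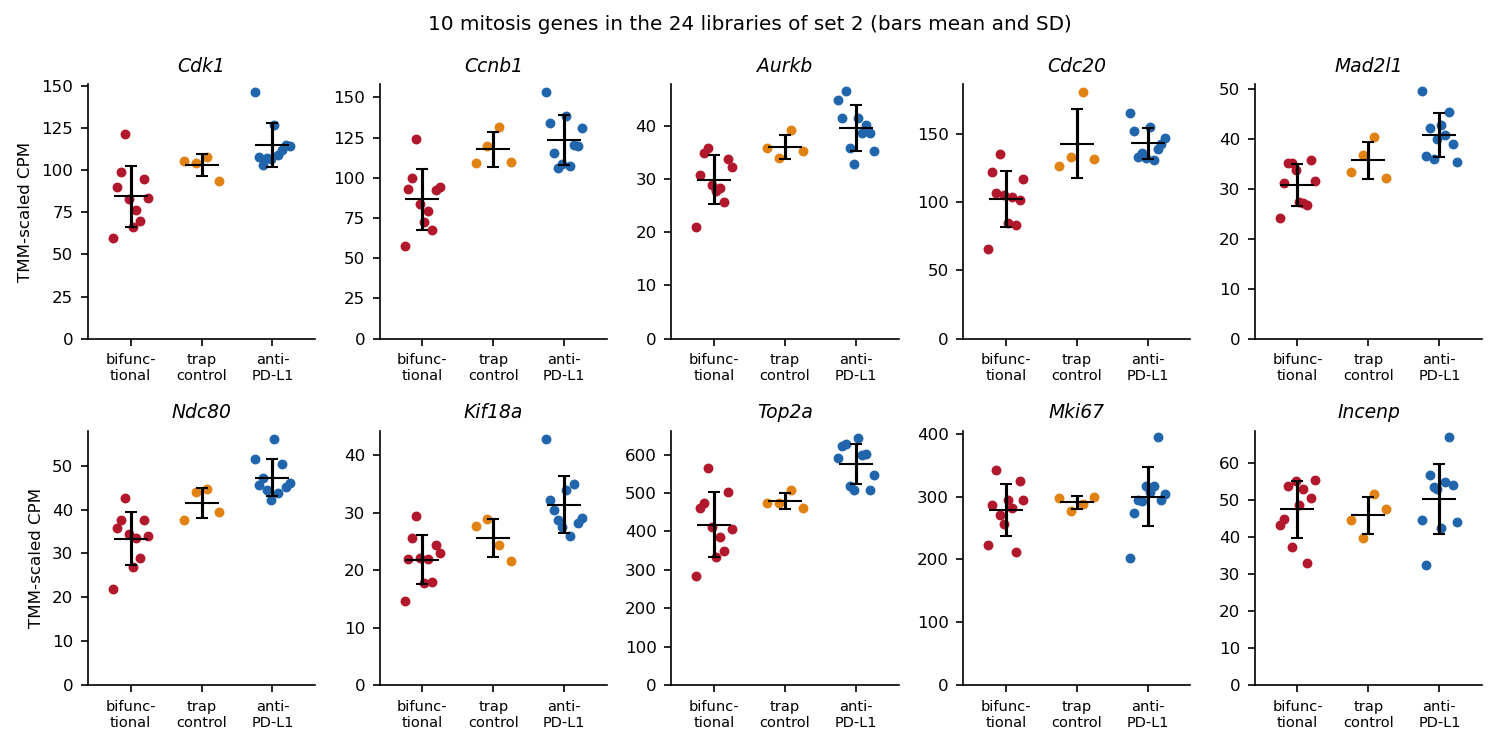
TMM-scaled CPM (vertical axis, starting at 0) of 10 genes in each of the 24 libraries of set 2; points are libraries and bars give mean and SD (n = 10 bifunctional, 4 trap control, 10 anti-PD-L1). For Ndc80 and Top2a the bifunctional points lie mostly below the others, while Mki67 and Incenp overlap almost fully.

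No gene of the 50 separated bifunctional from anti-PD-L1 libraries without overlap; 0.172% of all genes did so in the lower and 0.0509% in the higher direction. For 20 of the 50 genes every bifunctional library was below the anti-PD-L1 median, and for 42 at least 9 of 10 were. The shares of all genes that did so were not counted, so these numbers have no background to be read against. The mean log2 CPM over the 50 genes was 5.77 ± 0.26 in bifunctional tumors, 6.00 ± 0.06 in trap control tumors of set 2 and 6.12 ± 0.09 in anti-PD-L1 tumors (SD, n = 10, 4 and 10), so the bifunctional group was also the most spread out. C0479 was the lowest bifunctional library for 40 of the 50 genes, C0486 for 8 and C0484 for 2, and C0482 was the highest for 31.

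The count of lower genes rested partly on C0479 and C0484, the libraries highest in muscle markers. Without them 18 of the 50 genes fell, against 3.04% of all genes, and the median log2 fold change was -0.25; all 50 values remained negative on the count scale. The 18 included Ndc80 (-0.39), Ccnb1 (-0.40), Cdk1 (-0.33), Cdc20 (-0.37), Kif18a (-0.41) and Top2a (-0.35). With scores of the muscle, keratinocyte and adipocyte markers as covariates 20 genes fell, against 3.39% of all genes, and the median was -0.27.

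**Figure D3:**
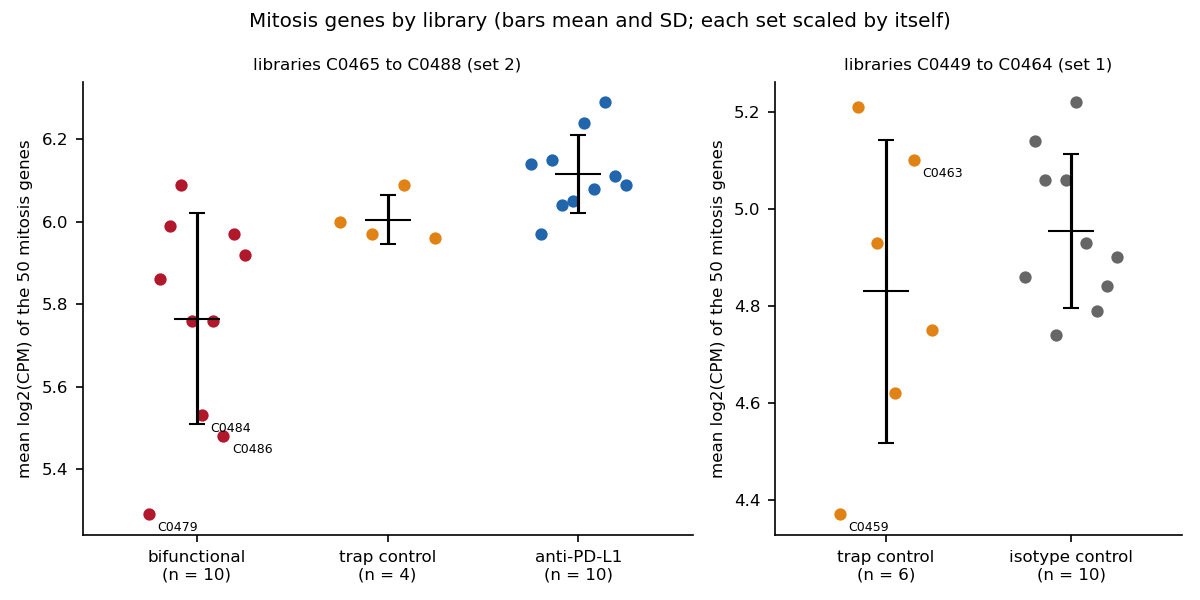
Mean log2(CPM) of the 50 genes (vertical axis) in each library, with group mean and SD; left set 2, right set 1, each scaled by itself so that levels are not comparable across panels. Bifunctional libraries range over 5.29 to 6.09, with C0479, C0486 and C0484 lowest, against 5.97 to 6.29 for anti-PD-L1.

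The scale mattered as well. TPM divides by transcript length and forces each library to one total. On log2(TPM + 1) in limma the median over all genes shifted to 0.15, 0.274% of all genes fell and 19.4% rose, and 0 of the 50 fell or rose at an adjusted p or even an unadjusted p under 0.05. The summed level of the 50 genes was 348 to 651 TPM (median 516) in bifunctional tumors and 411 to 699 TPM (median 530.3) in anti-PD-L1 tumors. Ndc80 averaged 6.03 ± 1.33 TPM in bifunctional tumors and 6.94 ± 1.00 TPM in anti-PD-L1 tumors, and Smc2 averaged 6.47 ± 1.58 TPM in bifunctional tumors and 6.43 ± 1.22 TPM in anti-PD-L1 tumors (SD, n = 10 each). On this scale the means of both genes differed by less than 1 SD. The genes with a positive value on this scale were Cdc25b, Cdca8, Cenpe, Cenpf, Espl1, Incenp, Mki67, Ncapd2, Ncaph, Nek2, Plk1 and Smc4, of which only Ncaph and Smc4 had fallen on the count scale. The median of the 50 minus that of all genes was -0.37 on the count scale, -0.33 on log2(TPM + 0.1) and -0.20 on log2(TPM + 1). After the shift of all genes was subtracted on log2(TPM + 1), 47 of 50 were negative with a median of -0.20. Of the 50 genes 4 fell, namely Ccnb1, Kif18a, Ndc80 and Nuf2, against 8.34% of all genes, so the share of 50 was close to the background.

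**Figure D4:**
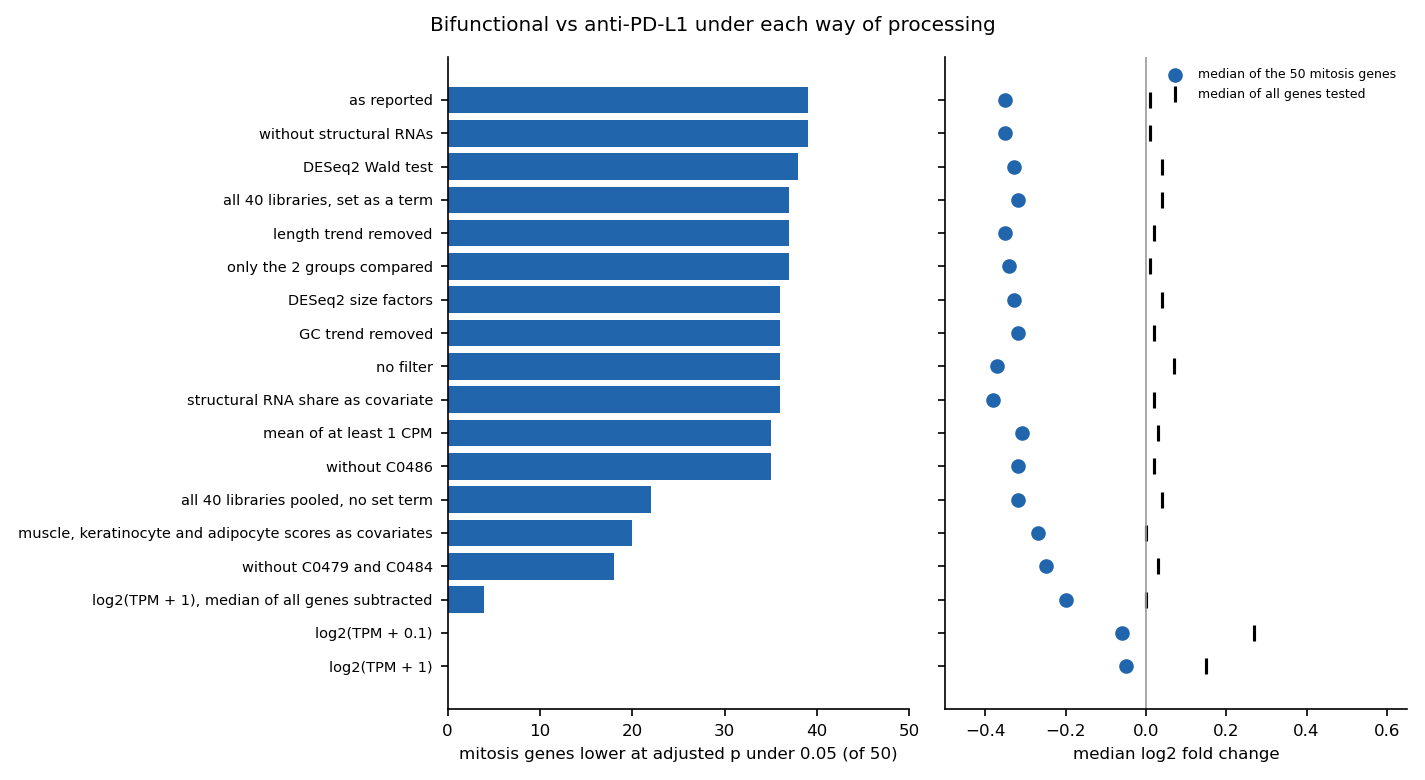
Number of the 50 genes lower in bifunctional than in anti-PD-L1 tumors at an adjusted p under 0.05 (left) and the median log2 fold change (right; points give the median of the 50 genes, ticks that of all genes tested) under each way of processing. The count is 39 as reported, 18 without C0479 and C0484 and 0 on the TPM scale, where the median over all genes moves above 0.

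Markers of other cells moved with the same contrast. T cell markers summed to 3.64 to 7.10 TPM (median 4.98) in bifunctional tumors and 0.62 to 2.67 TPM (median 1.41) in anti-PD-L1 tumors, with 9 of 11 tested markers higher. Of the 12 T cell markers none was at 0 in a bifunctional library, and Trac was at 0 in at least 1 anti-PD-L1 library. Macrophage markers summed to 150 to 540 TPM (median 274) in bifunctional tumors and 125 to 241 TPM (median 158) in anti-PD-L1 tumors, with 6 of 8 higher. All 9 muscle markers, both tested keratinocyte markers, 2 of 7 fibroblast and 2 of 7 adipocyte markers were higher. Of the 7 epithelial markers 1 fell and 1 rose, close to the shares over all genes. Their log2 fold changes ran from -0.59 (Krt8) to 1.75 (Cldn4). Without C0479 and C0484 the numbers higher were 7 of 11 for T cells, 1 of 8 for macrophages, 1 of 7 for fibroblasts and 0 for muscle, keratinocytes and adipocytes, against 1.87% of all genes higher. The part of T cells, macrophages and fibroblasts in the fall of the mitosis genes was not tested.

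How far the trap and PD-L1 blockade each go with these values was asked with the 4 trap control libraries of set 2. Against them the bifunctional group had 0 of 50 genes lower or higher by edgeR at an adjusted p under 0.05, and 16 at an unadjusted p under 0.05; over all genes 0% fell and 0.00637% rose. The log2 fold change was negative for 48 of 50, with a median of -0.23 on the count scale and -0.02 on the TPM scale, where 33 were negative and the median of all genes was 0.12. Without C0479 and C0484 the median was -0.15. A test with 4 libraries on one side is coarse, and the 95% interval for Cdk1, for example, was -0.54 to -0.03.

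The genes with the smallest p-values here were Cdc20, Ccnb1, Kif4 and Kif11. Cdc20 had 65.7, 105 and 136 CPM in bifunctional tumors (lowest, median, highest) and 127, 133, 181 and 132 CPM in the 4 trap control tumors (-0.48, SE 0.129, edgeR adjusted p 0.142). It was the 1 gene of the 50 that DESeq2 called, against 1.17% of all genes lower by that tool. Ccnb1 had 57.4, 88 and 124 CPM in bifunctional tumors and 109, 119.9, 132 and 109.6 CPM in trap control tumors (-0.44, SE 0.135, edgeR adjusted p 0.177). For both genes 9 of 10 bifunctional libraries lay below the trap control median, and the groups overlapped. Kif4 had 44.1, 63.8 and 87 CPM in bifunctional tumors and 76.6, 80.7, 89.4 and 74 CPM in trap control tumors (-0.33, SE 0.116). Kif11 had 77.9, 117 and 153 CPM in bifunctional tumors and 139.6, 153, 167 and 135 CPM in trap control tumors (-0.34, SE 0.121). The groups overlapped for both motors. Incenp and Cenpf were the genes with positive values, 0.05 and 0.03.

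Trap control tumors of set 2 were set against anti-PD-L1 tumors too. Of the 50 genes 0 fell and 0 rose by edgeR, 1 had an unadjusted p under 0.05, and DESeq2 also called 0; over all genes 0% fell and 0.0127% rose. The log2 fold changes were negative for 48 of 50, with a median of -0.12 on the count scale. On the TPM scale the median was -0.02, 33 were negative and the median of all genes was 0.03. Kif18a had 27.7, 28.9, 24.3 and 21.6 CPM in trap control tumors against 25.9, 29.8 and 42.8 CPM in anti-PD-L1 tumors (-0.29, SE 0.143). Top2a had 473.5, 474.9, 507 and 460.3 CPM in trap control tumors against 507, 595 and 644 CPM in anti-PD-L1 tumors (-0.27, SE 0.128). For both genes all 4 trap control libraries were below the anti-PD-L1 median, and the groups overlapped. Nuf2 had 38.8, 39, 45.1 and 37.5 CPM in trap control tumors and Mad2l1 33.3, 36.8, 40.4 and 32.2 CPM, with log2 fold changes of -0.20 and -0.19. Ncapd2 had the most positive value, 0.03. The set 2 comparisons share libraries and are not independent. When all 40 libraries were pooled without regard to set, this comparison gave 28 lower and 3 higher of the 50 genes, against 19.2% lower and 24.9% higher over all genes, values that carry the difference between the sets.

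In set 1 the trap control was compared with the isotype control, neither of which carried the active antibody. Here 2 of the 50 genes fell and 0 rose, against 4.15% lower and 3.19% higher over all 14183 genes tested, so the share of 50 was close to the background. The median log2 fold change was -0.04, and 33 of 50 values were negative. Smc4, a condensin core subunit, had 114, 133 and 148 CPM in trap control tumors against 143, 177 and 225 CPM in isotype control tumors (-0.45, SE 0.102, edgeR adjusted p 0.022). Kif18a had 9.64, 14.7 and 18.9 CPM in trap control tumors against 16.8, 21.6 and 26.5 CPM in isotype control tumors (-0.53, SE 0.126, edgeR adjusted p 0.0258). All 6 trap control libraries were below the isotype control median for both genes, and the ranges overlapped a little. Bub1 had 21.5, 28.7 and 39.9 CPM in trap control tumors against 30.3, 39.2 and 51.6 CPM in isotype control tumors (-0.40, edgeR adjusted p 0.0536), and Ect2 had 23.8, 35.6 and 46.1 CPM in trap control tumors against 35, 46.9 and 67.5 CPM in isotype control tumors (-0.49, edgeR adjusted p 0.0611). Neither passed. At the other end Plk1 had 15.8, 21.2 and 32.9 CPM in trap control tumors against 11.3, 19.9 and 22.8 CPM in isotype control tumors (0.34, SE 0.171, edgeR adjusted p 0.209), and Incenp had 28.5, 36.2 and 46.4 CPM in trap control tumors against 26.8, 30.3 and 35.1 CPM in isotype control tumors (0.27, SE 0.0916, edgeR adjusted p 0.0788). The groups overlapped for both.

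Library C0459 had the lowest trap control value of set 1 for 41 of the 50 genes; without it the median log2 fold change was 0.04 and Kif18a and Smc4 still passed, against 1.96% of all genes lower. The mean log2 CPM over the 50 genes was 4.83 ± 0.31 in trap control tumors and 4.95 ± 0.16 in isotype control tumors (SD, n = 6 and 10). Without C0463, the library highest in muscle markers in its group, 3 genes fell, namely Ect2, Kif18a and Smc4, against 406 of all 14297 genes. Ect2 passed narrowly (edgeR adjusted p 0.0469).

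The order of the genes in set 1 went with the base composition of their transcripts. Over the 50 genes the Spearman correlation of log2 fold change with transcript GC content was 0.87, against 0.60 over 13978 genes with a transcript. Kif18a, at 38.3% GC, had the most negative fold change, and Plk1, at 56.0% GC, the most positive. These points share libraries and lie along 1 trend across all genes, and when a smooth trend with GC content was removed 0 of 50 genes passed in edgeR, 3 had an unadjusted p under 0.05, and 0.0705% of all genes fell. Kif18a then had a log2 fold change of -0.18 and Smc4 of -0.17, and over all genes 16 passed in place of 1041. In bifunctional against anti-PD-L1 tumors the correlation was 0.31 (0.09 over 15473 genes), and with the trend removed 36 of 50 genes fell, against 11.8% of all genes, and the median was -0.32. The 11 genes that did not pass there had a median GC content of 54.0%, against 45.4% for the 39 that fell.

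**Figure D5:**
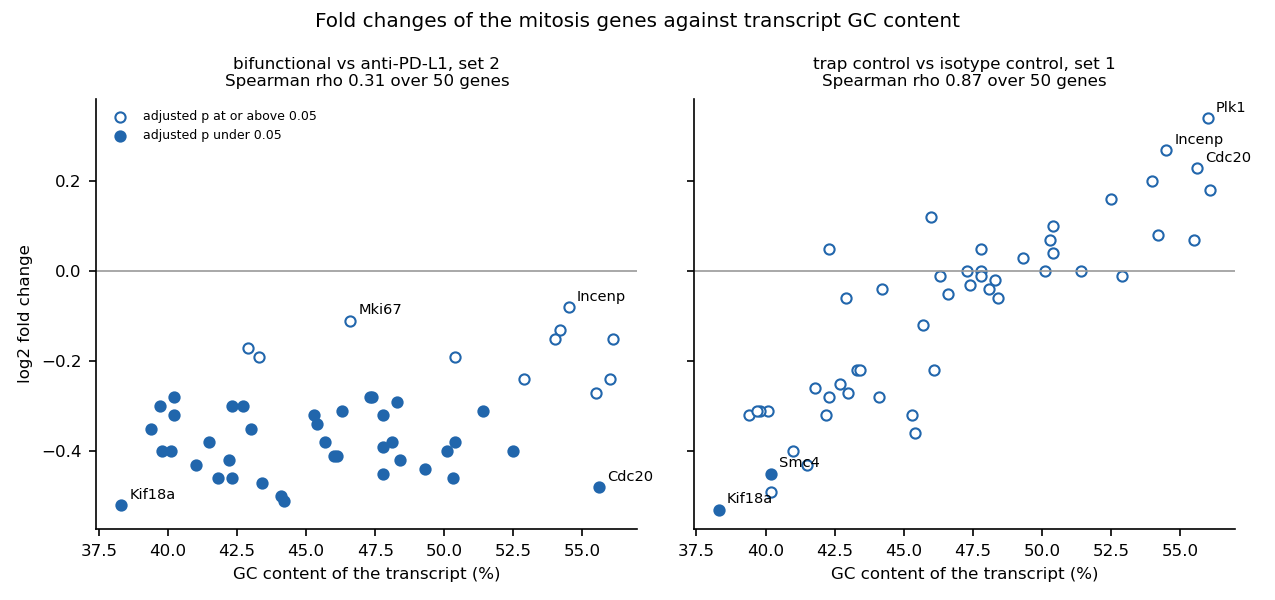
Log2 fold change (vertical axis) of the 50 genes against the GC content of their transcripts in percent (horizontal axis), in bifunctional against anti-PD-L1 tumors (left) and trap control against isotype control tumors (right); filled points have an adjusted p under 0.05. On the right the values climb with GC content, with a Spearman correlation of 0.87, and on the left it is 0.31.

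Whether the trap went with a different change in the presence of PD-L1 blockade was tested as a difference of differences, with each difference taken inside its set. Of the 50 genes 2 passed, Cdc20 (-0.68, SE 0.171, edgeR adjusted p 0.0151) and Aurkb (-0.53, SE 0.137, edgeR adjusted p 0.0175), both in the negative direction, against 3.96% of 16174 genes in each direction, so the share of 50 was close to the background. The median of the 50 values was -0.22 with 41 negative, but on the TPM scale it was 0.02 with 21 negative and a median over all genes of 0.14, and by limma 0 passed at an adjusted or an unadjusted p under 0.05, against 0.0495% of all genes lower. Cdc20 had a log2 fold change of -0.48 in bifunctional against anti-PD-L1 tumors and 0.23 in trap control against isotype control tumors. Cdc20 had 33.3, 41.3 and 63.8 CPM in trap control tumors of set 1 against 27.3, 36.8 and 49.4 CPM in isotype control tumors, with wide overlap. Aurkb, with 11.1, 15.2 and 20.5 CPM in trap control tumors of set 1 against 10.7, 13.5 and 16.3 CPM in isotype control tumors, had -0.40 in bifunctional against anti-PD-L1 tumors and 0.16 in trap control against isotype control tumors. Pttg1 (-0.51, edgeR adjusted p 0.0507), Kif2c (-0.50, edgeR adjusted p 0.0513) and Bub1b (-0.46, edgeR adjusted p 0.0543) stood just beyond the threshold, and DESeq2 called them along with Aurkb and Cdc20, against 5.09% of all genes lower. The values correlated with GC content at -0.73, and with its trend removed Aurkb, Bub3 and Ccnb1 passed and Cdc20 did not, against 1.29% of all genes lower, and all 50 were negative (median -0.30). Effects of the set and of treatment cannot be told apart here beyond a shift that is the same in every group of a set.

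How closely the 50 genes moved together from tumor to tumor varied by group. Within the 10 bifunctional libraries the Spearman correlation of each gene with the mean of the other 49 had a median of 0.93, and 48 genes exceeded 0.5; Incenp was lowest at 0.30. Within the anti-PD-L1 group the median was 0.46, 21 genes exceeded 0.5 and Bub3 was lowest at -0.13. Within the isotype control group the median was 0.73, 41 genes exceeded 0.5 and Cdc25b was lowest at -0.65 (n = 10 libraries in each group, which share library and depth between genes). Outside the list, the genes whose log2 CPM followed the mean of the 50 most closely over the 24 libraries of set 2, among 13428 genes, were Rrm1 (0.924), Sgo2a (0.910), Pbk (0.909), Cse1l (0.903) and Ska1 (0.891).

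Per length, in each group of set 2, Cdk1 and Top2a had the highest mean TPM of the 50 and Espl1 the lowest. In set 1 the order was another: in isotype control tumors Smc4 was highest at 14.6 ± 4.3 TPM and Cdc25c lowest at 0.863 ± 0.27 TPM (SD, n = 10). In anti-PD-L1 tumors the TPM level was 47.1 ± 6.09 for Cdk1, 40.9 ± 6.32 for Top2a and 26.6 ± 3.00 for Cdc20, against 2.50 ± 0.523 for Sgo1 and 1.72 ± 0.503 for Espl1 (SD, n = 10). The difference between Cdk1 and Top2a, which were measured in the same libraries, was not tested. The genes lie on 16 chromosomes, with 9 on the fullest one. Cdk1 (ENSMUSG00000019942) is at chr10:69335146-69352938 in mm10, Ndc80 (ENSMUSG00000024056) at chr17:71496100-71526857, Kif18a (ENSMUSG00000027115) at chr2:109280738-109341747 and Cdc20 (ENSMUSG00000006398) at chr4:118432901-118437352. The deposited counts of Ccna2, Kif20a, Kif4, Kif18a, Cenpf and Racgap1 were not whole in any of the 40 libraries, so reads shared with other genes were divided among them and their values are less certain. The same held in 39 libraries for Ncapg and Hmmr, 38 for Birc5, 33 for Kif11, 27 for Top2a and 26 for Ube2c. It held in 1 to 13 libraries for Cdc20, Smc4, Plk1, Ccnb1 and Cdca8.

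Promoter windows of 250 bases before to 50 after the start, from RefSeq on GRCm38.p6, matched 43 of the 50 genes. The CHR letters TTTGAA, on either strand, were in the window of 31 (72.1%), against 20.2% of all 27025 genes in the table and 14.6% of 11272 genes tested in the expression fit. Kif2c, whose window lies inside the annotated gene, is counted among the 31. The letters CCAAT were in 32 (74.4%), against 41.1% of all genes and 42.5% of those tested, and both elements in 26 (60.5%), against 7.97% and 5.99%. An E2F-like site (TTTCGCGC, TTTGGCGC or TTTCCCGC) was in 5 (11.6%), against 2.12% of all genes and 3.81% of those tested. Each motif was searched on its own, so matches of different motifs may share bases, and a match describes letters only. Printed below, to show what the windows look like in genes with the smallest p-values in bifunctional against anti-PD-L1 tumors, are the 250 bases before the start of 3 genes with the CHR letters there and 1 without (Kif2c, whose window lies inside the annotated gene, is left out), 5′ to 3′ along the gene, with CHR and CCAAT letters of either strand in capitals. Top2a is at chr11:99024190-99024439 on the minus strand, Cdc20 at chr4:118437344-118437593 on the minus strand, Smc2 at chr4:52438971-52439220 on the plus strand and Nuf2 at chr1:169531465-169531714 on the minus strand.
Top2a: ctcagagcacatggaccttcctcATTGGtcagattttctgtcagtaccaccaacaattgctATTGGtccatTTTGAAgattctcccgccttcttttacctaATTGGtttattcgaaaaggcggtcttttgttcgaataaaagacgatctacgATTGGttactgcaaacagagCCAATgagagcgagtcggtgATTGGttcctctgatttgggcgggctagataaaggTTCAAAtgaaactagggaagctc
Cdc20: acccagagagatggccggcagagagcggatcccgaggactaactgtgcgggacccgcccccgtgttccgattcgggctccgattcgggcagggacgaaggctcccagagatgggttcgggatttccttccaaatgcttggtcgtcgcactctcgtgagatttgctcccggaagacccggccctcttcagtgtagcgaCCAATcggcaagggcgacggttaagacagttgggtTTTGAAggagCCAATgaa
Smc2: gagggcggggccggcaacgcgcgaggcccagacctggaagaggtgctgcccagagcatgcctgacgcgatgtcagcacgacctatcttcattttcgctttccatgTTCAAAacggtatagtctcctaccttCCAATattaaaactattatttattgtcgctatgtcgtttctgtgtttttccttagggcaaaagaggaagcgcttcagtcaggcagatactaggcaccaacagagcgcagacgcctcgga
Nuf2: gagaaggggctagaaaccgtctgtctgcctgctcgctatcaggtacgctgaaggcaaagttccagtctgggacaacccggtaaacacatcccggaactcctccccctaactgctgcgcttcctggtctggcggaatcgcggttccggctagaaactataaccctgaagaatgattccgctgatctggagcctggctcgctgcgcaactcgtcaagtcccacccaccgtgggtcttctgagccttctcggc

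Top2a carries the CHR letters 2 times, 179 and 23 bases before the start, and CCAAT letters 6 times. Cdc20 carries them once, 18 bases before the start, and Nuf2 carries neither. In the window of Ndc80 the CHR letters stand 29 bases after the start. How many printed windows have the letters was set by the choice of windows and does not show their frequency. Among the 12 genes with the smallest p-values, the windows of Mad2l1, Kif18a and Ccnb1 also lack the CHR letters, while those of Kif2c and Hmmr have them. Incenp, Smc4, Ccna2, Aurkb, Tpx2, Cdc25c and Kif20a were not matched.

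Genes that work beside the 50 were followed as lists in bifunctional against anti-PD-L1 tumors, on the count scale, where 13.1% of all genes fell and 12.4% rose. On log2(TPM + 1) the median over all genes was 0.15, and the TPM medians below contain that shift. With it subtracted they were -0.20 for other kinetochore, -0.16 for further mitotic, -0.07 for anaphase-promoting complex and 0.05 for cohesin genes. Of 31 other kinetochore genes 26 fell and 0 rose (median -0.34, and -0.04 on the TPM scale). Spdl1, which brings dynein to kinetochores, had 12.9, 17 and 22 CPM in bifunctional tumors against 18.9, 24.7 and 30.0 CPM in anti-PD-L1 tumors (-0.54, SE 0.0931, edgeR adjusted p 0.00329). Zwilch and Cenpu fell by 0.49 and 0.51. Of 43 further mitotic genes 29 fell and 0 rose (median -0.30, and -0.01 on the TPM scale), among them the kinase gene Pbk (-0.50). For the anaphase-promoting complex 8 of 17 fell and 0 rose; the median was -0.21 but 0.08 on the TPM scale, and the leading genes were its inhibitor Fbxo5 (-0.44) and its ubiquitin carrier Ube2s (-0.40). Of 13 cohesin genes 3 fell, with a median of -0.09 on the count scale and 0.20 on the TPM scale.

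Of 20 MuvB, E2F and RB family genes 6 fell and 3 rose, the number that rose being close to the share over all genes. The median was -0.11 on the count scale and 0.13 on the TPM scale, or -0.02 with the shift of all genes subtracted. Rbl2, which encodes the repressor p130, had 29.1, 34.5 and 38.6 CPM in bifunctional tumors against 23.6, 28.6 and 32.4 CPM in anti-PD-L1 tumors (0.28, SE 0.0615, edgeR adjusted p 0.00675), and Rb1 rose by 0.36. Tfdp1, the partner of E2F proteins, and Lin9, a MuvB subunit, fell by 0.34 and 0.29. The activators Foxm1 (-0.07, edgeR adjusted p 0.725) and Mybl2 (-0.22, edgeR adjusted p 0.162) did not pass.

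Of 16 cell-cycle brakes 1 fell and 3 rose, numbers near the share over all genes, and the median of -0.02 on the count scale was 0.19 on the TPM scale. Cdkn1c, an inhibitor of cyclin-dependent kinases, had a log2 fold change of 1.79 (SE 0.493, edgeR adjusted p 0.0157) and low levels of 0.436, 1.25 and 4.13 CPM in bifunctional tumors against 0.147, 0.379 and 1.52 CPM in anti-PD-L1 tumors. Cdkn1a, which encodes p21, had a value of 0.13 and did not pass. Without C0479 and C0484 none of the 16 passed in edgeR. Among 11 genes of G1 and replication licensing 6 fell and 1, the cyclin gene Ccnd2, rose (1.10), with a median of -0.21 on the count scale and 0.05 on the TPM scale. Of 19 DNA replication genes 18 fell and 0 rose, with a median of -0.35 on the count scale and -0.07 on the TPM scale. With the shift of all genes subtracted the TPM medians were 0.03 for the brakes, -0.10 for G1 and licensing and -0.22 for replication. Gins1, of the replicative helicase, had 6.33, 8.21 and 10.3 CPM in bifunctional tumors against 9.86, 12.1 and 18.2 CPM in anti-PD-L1 tumors (-0.59, SE 0.101, edgeR adjusted p 0.00329). Without C0479 and C0484 the numbers lower were 9 of 31 kinetochore genes, 9 of 43 mitotic genes and 9 of 19 replication genes, against 3.04% of all genes. They were 2 of 17 for the anaphase-promoting complex and 0 of 13 for cohesin. Of the 20 MuvB, E2F and RB family genes 0 fell and 1 rose, so Tfdp1 and Lin9 no longer passed. Of the 11 genes of G1 and licensing 2 fell and 0 rose, so Ccnd2 no longer passed.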

How the data were processed

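Bulk RNA-seq of 40 EMT-6 tumors was used; per the labels, tumors were snap-frozen, ribosomal RNA was removed and priming was random. RSEM 1.2.31, Bowtie2 2.3.1 and mm10 are listed in the submitters' processing notes with no role; the annotation release, strand and filters are not given in the sources used here. The authors deposited RSEM expected counts, in which a read shared by genes is split among those genes, and TPM values. 14% of the count values were not whole and all were rounded. IDs were matched to GENCODE M21 symbols (37607, or 96.4%). The labels give each library as a tumor from a mouse, and p-values measure the spread between these tumors.

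edgeR 4.0.16 (R 4.3.3) was run with TMM, its default filter on low counts and its quasi-likelihood F test, two-sided, with Benjamini-Hochberg adjustment over all genes tested and a threshold of 0.05. Set 2 was fitted with 3 means (15704 genes), set 1 with 2 means (14183 genes) and the difference of differences with 5 means (16174 genes). Spread is SD over libraries. The procedure was run on simulated data with known changes, in which genes varied independently. That simulation had no shift of whole libraries and no GC trend, so it does not cover those features of the data. Alternatives were DESeq2 1.42.0, other size factors and filters, limma 3.58.1 on log2(TPM + 1) and log2(TPM + 0.1), covariates, pooled sets and libraries left out; leaving out C0486, C0459 or C0463 and removal of a GC or length trend (lowess span 0.3) were chosen after seeing the data. Full values are given for the 12 genes with the smallest p in bifunctional against anti-PD-L1, the 4 smallest in each other comparison, the extremes and 7 reference genes, in part by fold only. Python 3.11.15, numpy 2.4.6, scipy 1.17.1, pandas 2.3.3 and matplotlib 3.10.9 were used for summaries and plots. The members and lists were chosen with earlier results of these data known.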

Additional observations from a re-analysis of the deposited data

Results flagged for a closer look

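Of 250 sets of values (each of the 50 genes in each of 5 groups) 6, or 2.4%, had 1 library far from the others by Dixon's test; chance flags about 1 in 20. In the 4 trap control libraries of set 2, C0467 was highest for Cdc20 at 181 CPM (next 133 CPM) and for Ttk at 26.2 CPM (next 21.8 CPM), and C0468 was lowest for Pttg1 at 16.8 CPM (next 19.7 CPM). In the trap control libraries of set 1, C0459 was lowest for Anln at 57.6 CPM (next 90.3 CPM). In the isotype control group C0454 was highest for Kif23 at 31.4 CPM (next 26.9 CPM) and for Kif15 at 44.5 CPM (next 33.4 CPM).

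The change with the trap differed between tumors with and without PD-L1 blockade for Cdc20 (difference of log2 fold changes -0.68) and Aurkb (-0.53) by edgeR's test of that difference. These 2 of 50 genes are close to the background of 3.96% of all genes in that direction. On log2(TPM + 1) 0 of the 50 passed, and with the GC trend removed Cdc20 did not pass. Each arm of the difference lies in its own library set.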

How the results depend on the processing

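No paired analysis was possible because the labels give no replicate numbers that link tumors of different groups. In bifunctional against anti-PD-L1 tumors the number of the 50 genes called lower, 39 as reported, was 22 with all 40 libraries pooled, 20 with the muscle, keratinocyte and adipocyte scores as covariates, 18 without C0479 and C0484, 4 on TPM after the shift of all genes was removed and 0 on log2(TPM + 1) and log2(TPM + 0.1); it was 35 to 39 under the other 11 settings. The median was -0.05 on log2(TPM + 1) and -0.06 on log2(TPM + 0.1), against 0.15 and 0.27 over all genes on these TPM scales. Smc4 reversed to 0.01 on both, and Ncaph, the other called gene that turned positive on both, had 0.02 on log2(TPM + 1). Against the trap control of set 2, 0 became 1 with DESeq2 and 6 when pooled, where 2634 of all 15183 genes fell. The pooled share of 50 was thus not above that over all genes. Leaving out each trap control library gave 0. In trap control against anti-PD-L1 tumors pooling gave 28 lower and 3 higher. In set 1 the 2 lower genes became 4 with DESeq2, with 5 means or with the set as a term. Over all genes 959 of 14183, 861 of 16174 and 890 of 15183 fell there, so these shares were near the background. Pooling gave 7 lower and 9 higher, close to the shares over all 15183 genes (1832 lower, 2380 higher). The number was 0 on the 3 TPM settings, with those covariates or with the GC trend removed. The difference of differences gave 5 genes with DESeq2 and 0 on TPM. Why TPM and counts differed was not tested beyond the shift of all genes. The 50 genes together had 15690 to 87028 counts per library in set 1 and 68201 to 142830 in set 2, and counting error is larger where counts are fewer.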
